A study of Homo sapiens with 4 samples.

Results

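Divergent transcripts are RNAs that start close to the start of a coding gene and run away from it on the opposite strand. They are named after that gene with the ending -DT. The files of this series held 584 genes with such a symbol among 58735 identifiers, and the 197 whose mean over the 4 libraries was at least 0.5 FPKM are described here. FPKM is a fragment count scaled to gene length and sequencing depth, so levels may be compared between genes. The remaining -DT genes were below that mean, and 95 of them were at 0 in every library. Members were selected on that mean FPKM alone, and levels are therefore given without a test.

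The RNA came from HCT116, a human colorectal carcinoma cell line, 48 h after transfection. The 4 libraries form 2 groups of 2, control siRNA and KIF26B siRNA, each labelled replicate 1 and 2. All cells were of the same line and all were transfected, so the groups differ by label only in the siRNA. Which of the study's siRNAs against KIF26B went into which library is not stated in the sources used here. The deposited values of the KIF26B siRNA libraries are headed K_KD1_2 and K_KD2. These headers may stand for different siRNAs, so the group may mix them. Nothing in the labels says that replicates came from separate cultures, so the P values measure the spread between these libraries, which may be technical.

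KIF26B, a kinesin family member and the targeted gene, stood at 0.110 and 0.205 FPKM in the controls and 0.140 and 0.0307 FPKM under KIF26B siRNA, on 31, 73, 43 and 8 recovered reads. KIF26B siRNA replicate 1 lay between the controls, so its label was not borne out by the target, and "KIF26B siRNA" below means the libraries labelled so. The epithelial markers EPCAM, KRT8, KRT18 and CDH1 were well above 0 in every library (lowest 17.7 FPKM, CDH1). CEACAM5, a marker expected in colorectal epithelium, was absent (at most 1 read), PTPRC and COL3A1 had at most 8 reads in a library, while the fibroblast collagen COL1A1 stood between 4.74 and 8.69 FPKM in all 4. PECAM1 was not analysed here. Reads recovered per library ranged from 19938154 to 25832199, and mitochondrial reads made up 6.56% and 6.58% in the controls and 9.23% and 7.41% in the KIF26B siRNA libraries.

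Most active mammalian promoters fire in both directions. The upstream RNA is usually short-lived: it meets early polyadenylation sites and few U1 snRNP binding sites, ends early, and is degraded by the nuclear exosome, which the NEXT complex and the PAXT connection guide to it. Those that are spliced and polyadenylated can accumulate as stable long noncoding RNAs, and only polyadenylated RNA entered these libraries, which were made with poly-T beads. The genes are therefore a selection of divergent units that yield a poly(A) RNA.

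All 197 members lay on the opposite strand to the gene they are named after, and all 197 of those genes were protein-coding. In the GENCODE annotation the distance from the divergent start to the coding start had a median of 86 bases (quartiles -17 and 232, a negative value meaning that the 2 genes overlap at their starts), and 182 pairs had starts within 1000 bases of each other. The start of a gene is here its outermost annotated one over all transcripts. By that choice the starts overlapped in 53 pairs. In 46 pairs exons of both genes shared bases, a median of 127.5, and the authors' use of strand in counting is not stated, so the reads there cannot be assigned to one gene or the other with certainty. The shared bases were a median of 2.95% of the divergent gene's exons in those 46, and in none did they exceed 50%. By annotation 152 members had 2 or more exon blocks and 45 had 1.

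RefSeq promoter windows (250 bases before to 50 after a start, GRCh38.p14) were found for 146 members and for 160 coding partners. In 136 pairs both windows were present, and in 112 of these the windows shared bases, with a median of 195.5 bases over all 136. One stretch of DNA thus serves as the window of both genes in most pairs. The median GC share was 69.7% for the divergent windows, 69.0% for those of the partners, 62.0% for other long noncoding RNA (lncRNA) genes of the same level limit and 58.3% for all 27305 RefSeq windows, and the observed over expected CpG ratio was 0.904, 0.903, 0.672 and 0.580 in the same order.

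Letters of 5 promoter elements were searched on both strands of each window. The GC box GGGCGG was in 76.7% of divergent windows, 77.5% of partner windows and 44.6% of all windows. The ETS-type element CCGGAAG was in 24.0%, 31.2% and 10.7%. The CCAAT box was in 31.5%, 34.4% and 35.7%, the E-box CACGTG in 8.22%, 9.38% and 7.43%, and the TATA element TATAAA in 3.42%, 6.25% and 12.0%. Divergent windows thus held the GC box and the ETS-type letters more often, and TATAAA less often, than all windows did. Other lncRNA genes of the same level limit had 54.6% (GC box), 10.8% (ETS-type), 36.8% (CCAAT), 8.95% (CACGTG) and 8.61% (TATAAA). These are descriptions without a test, since overlapping windows of a pair share sequence. Divergent windows also had the higher GC share, whose part in the matches was not tested. A match is a run of letters and not a shown site.

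The windows of 9 members that the results below turn on are shown 5′ to 3′ on the strand of the divergent gene, in lower case with matches to any of the 5 elements, on either strand, in capitals. The first 6 are members higher in the KIF26B siRNA libraries, the next pair are members lower there, and the last belongs to the member whose coding partner CDC20 was lower. Adjoining or overlapping matches run together. The windows lie at chr2:3558136-3558435, plus strand (RNASEH1-DT), chr5:10354008-10354307, minus strand (MARCHF6-DT), chr9:137086768-137087067, minus strand (MAN1B1-DT), chr7:1160124-1160423, plus strand (ZFAND2A-DT), chr19:58408414-58408713, minus strand (ZNF584-DT), chr2:39437166-39437465, plus strand (MAP4K3-DT), chr1:228165463-228165762, minus strand (IBA57-DT), chr18:63367074-63367373, plus strand (KDSR-DT) and chr1:43358624-43358923, minus strand (CDC20-DT), all in GRCh38.p14.
RNASEH1-DT: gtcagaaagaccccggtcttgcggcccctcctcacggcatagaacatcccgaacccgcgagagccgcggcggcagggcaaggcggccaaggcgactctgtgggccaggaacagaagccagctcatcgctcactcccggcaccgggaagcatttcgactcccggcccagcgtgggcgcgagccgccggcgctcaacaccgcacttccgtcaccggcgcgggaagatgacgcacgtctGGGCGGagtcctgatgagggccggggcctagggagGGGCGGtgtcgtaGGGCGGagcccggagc
MARCHF6-DT: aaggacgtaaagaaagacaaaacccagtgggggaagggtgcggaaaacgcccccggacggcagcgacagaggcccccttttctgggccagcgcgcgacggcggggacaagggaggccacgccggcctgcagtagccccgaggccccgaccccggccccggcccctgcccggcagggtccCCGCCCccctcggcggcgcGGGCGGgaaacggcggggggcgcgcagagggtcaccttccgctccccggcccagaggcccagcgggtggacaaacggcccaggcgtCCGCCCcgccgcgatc
MAN1B1-DT: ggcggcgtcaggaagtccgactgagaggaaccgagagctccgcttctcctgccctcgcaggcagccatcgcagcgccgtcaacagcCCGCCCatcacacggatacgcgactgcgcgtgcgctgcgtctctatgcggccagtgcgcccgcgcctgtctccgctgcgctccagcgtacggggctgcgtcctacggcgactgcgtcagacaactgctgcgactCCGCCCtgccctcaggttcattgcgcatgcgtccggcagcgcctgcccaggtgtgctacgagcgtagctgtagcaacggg
ZFAND2A-DT: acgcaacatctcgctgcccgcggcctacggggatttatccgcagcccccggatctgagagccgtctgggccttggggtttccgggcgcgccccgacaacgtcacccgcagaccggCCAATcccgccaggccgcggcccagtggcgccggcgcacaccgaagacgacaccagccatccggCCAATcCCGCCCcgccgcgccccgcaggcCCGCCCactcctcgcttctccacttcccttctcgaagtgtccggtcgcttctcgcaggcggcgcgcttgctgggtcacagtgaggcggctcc
ZNF584-DT: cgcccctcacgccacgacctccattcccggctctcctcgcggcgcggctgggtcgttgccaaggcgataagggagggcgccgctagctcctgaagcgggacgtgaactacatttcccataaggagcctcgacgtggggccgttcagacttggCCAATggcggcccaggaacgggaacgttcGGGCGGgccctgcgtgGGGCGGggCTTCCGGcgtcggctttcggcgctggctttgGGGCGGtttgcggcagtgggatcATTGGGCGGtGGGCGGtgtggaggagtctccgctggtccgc
MAP4K3-DT: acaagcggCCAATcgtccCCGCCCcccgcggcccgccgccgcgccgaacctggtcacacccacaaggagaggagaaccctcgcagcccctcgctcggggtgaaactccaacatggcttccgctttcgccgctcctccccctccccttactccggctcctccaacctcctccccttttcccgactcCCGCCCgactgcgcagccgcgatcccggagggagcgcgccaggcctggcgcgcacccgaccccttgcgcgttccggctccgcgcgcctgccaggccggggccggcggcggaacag
IBA57-DT: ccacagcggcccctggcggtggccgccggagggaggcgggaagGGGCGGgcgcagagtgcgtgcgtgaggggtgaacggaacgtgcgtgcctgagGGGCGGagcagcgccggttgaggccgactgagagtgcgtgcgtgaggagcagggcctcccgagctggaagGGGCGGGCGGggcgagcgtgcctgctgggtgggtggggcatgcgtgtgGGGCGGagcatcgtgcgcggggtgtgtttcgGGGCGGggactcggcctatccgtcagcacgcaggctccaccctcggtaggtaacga
KDSR-DT: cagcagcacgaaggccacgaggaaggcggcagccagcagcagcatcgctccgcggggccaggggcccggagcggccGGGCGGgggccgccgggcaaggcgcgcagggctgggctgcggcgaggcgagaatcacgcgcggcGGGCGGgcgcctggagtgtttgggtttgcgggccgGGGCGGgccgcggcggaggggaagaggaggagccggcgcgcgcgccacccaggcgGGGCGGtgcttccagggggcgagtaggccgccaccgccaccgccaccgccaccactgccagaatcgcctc
CDC20-DT: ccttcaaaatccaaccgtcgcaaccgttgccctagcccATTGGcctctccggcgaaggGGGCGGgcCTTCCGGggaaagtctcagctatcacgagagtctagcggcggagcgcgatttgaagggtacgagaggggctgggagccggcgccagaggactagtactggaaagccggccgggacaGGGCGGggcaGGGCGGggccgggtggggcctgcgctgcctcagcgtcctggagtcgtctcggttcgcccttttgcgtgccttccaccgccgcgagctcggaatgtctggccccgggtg
Each of the 9 windows shown holds at least 1 GC box, and none holds TATAAA. The windows of EOLA2-DT, GARS1-DT and MVP-DT, higher members that are not shown, hold none of the 5 elements. The RefSeq start of GARS1-DT lies 16956 bases from that of GARS1, so its window is not one beside the coding start. The IBA57-DT window has 6 GC boxes and the KDSR-DT window 4, with no other element. The higher members RNASEH1-DT, MARCHF6-DT and MAN1B1-DT (3, 3 and 2 GC boxes) likewise hold no other element. ZFAND2A-DT has 2 CCAAT letters and 2 GC boxes, and ZNF584-DT and CDC20-DT carry an ETS-type match between GC boxes. For the 14 members with a window that were higher in the KIF26B siRNA libraries, 11 had a GC box and 2 the ETS-type letters.

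Divergent transcripts were low in these cells, as other lncRNA genes were. The median level of the members was 1.07 FPKM (quartiles 0.714 and 1.88). It was 3.90 FPKM for all 17809 genes that met the same limit and 9.46 FPKM for the 192 coding partners that met it. Other lncRNA genes at that limit had a median of 1.10 FPKM, and genes with symbols ending in -AS and a number 1.20 FPKM. Among the members 90 were below 1 FPKM, 42 reached 2 FPKM and 6 reached 5 FPKM. The median number of reads per member was between 39 and 46 in each library, and 83 members had under 20 reads in at least 1 library. The 3 members just inside the limit were ZNF236-DT, MICALL2-DT and AP1AR-DT (means 0.501, 0.501 and 0.503 FPKM), and the 3 just outside were ITGB1-DT, EIF2AK3-DT and CNNM3-DT (0.497, 0.490 and 0.481 FPKM).

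The most abundant member was ZDHHC12-DT, at 10.6 and 11.2 FPKM in the controls and 9.12 and 8.34 FPKM under KIF26B siRNA. Its partner ZDHHC12, a palmitoyltransferase, stood at 16.2 and 18.2 FPKM in the controls and 12.2 and 11.3 FPKM under KIF26B siRNA. Both genes were below both controls in both KIF26B siRNA libraries, and the ratio of one to the other was 0.677 over all libraries.

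BAIAP2-DT came next, at 9.07 and 8.92 FPKM in the controls and 12.2 and 5.33 FPKM under KIF26B siRNA, so the KIF26B siRNA libraries lay on either side of the controls. EMSY-DT, beside the gene of a BRCA2-binding protein, stood at 5.88 and 3.71 FPKM in the controls and 4.41 and 9.1 FPKM under KIF26B siRNA, replicate 1 within the span of the controls and replicate 2 above it. PCCA-DT, beside the gene of a propionyl-CoA carboxylase subunit, stood at 7.09 and 5.99 FPKM in the controls and 6.31 and 2.67 FPKM under KIF26B siRNA, where replicate 2 alone was low. FHIP1A-DT (5.12, 6.23, 3.66 and 6.34 FPKM, in the order control replicates 1 and 2, KIF26B siRNA replicates 1 and 2) and TBC1D22A-DT (3.8, 4.78, 2.65 and 6.86 FPKM) showed their lowest value in KIF26B siRNA replicate 1 and their highest in replicate 2.

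Also among the 10 highest, AKAP1-DT stood at 3.93, 3.98, 3.997 and 6.15 FPKM and GATD1-DT at 4.14, 4.32, 3.45 and 5.49 FPKM in the same order. In these members the spread between the KIF26B siRNA libraries was larger than that between the controls. RNASEH1-DT, rank 10, is described with the changes below.

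Beside its own coding gene a divergent transcript was usually the minor product. Over the 197 pairs the median ratio of mean FPKM was 0.125 (quartiles 0.0613 and 0.303), 82 members were under 0.1 of their partner, and 17 were above it, 11 of them in every library. Levels of the 2 genes of a pair hardly moved together across pairs (Pearson r = 0.054 of log2 mean FPKM, n = 197 pairs measured in the same libraries, description only). Members were kept at 0.5 FPKM or more, so their range is cut at its lower end, which can weaken r. For 444 pairs of antisense-named genes (symbols ending in -AS and a number) with a coding gene of that name, both at 0.5 FPKM or more, the median ratio was 0.183 and 50 were above their gene, against 0.122 and 12 of the 192 divergent pairs under that same limit.

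Where the partner was itself at 0.5 FPKM or more, the highest ratios belonged to CHKB-DT, C16orf95-DT, PCCA-DT, FAM151B-DT, RAB30-DT and EMSY-DT. CHKB-DT averaged 2.01 FPKM and CHKB, a choline kinase, 0.667 FPKM, a ratio of 3.01. The ratio was 3.81, 2.88, 5.65 and 1.24 in the 4 libraries, so replicate 2 of the KIF26B siRNA group was the lowest and replicate 1 the highest. C16orf95-DT (2.96), PCCA-DT (2.38), FAM151B-DT (2.3), RAB30-DT (2.25, beside a Rab GTPase) and EMSY-DT (2.07) followed in ratio.

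Another 5 members had a partner below the limit. PIWIL2-DT averaged 2.21 FPKM against 0.149 FPKM for PIWIL2, a germline piRNA-binding protein, and CABP1-DT 1.98 FPKM against 0.298 FPKM for CABP1, a neuronal calcium-binding protein. ZNF747-DT, TOMM20L-DT and JAKMIP1-DT were between 0.543 and 0.902 FPKM. JAKMIP1-DT is annotated as a transcribed pseudogene, the one member that is not annotated as a lncRNA.

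At the other end, the glycolytic enzyme gene GAPDH averaged 1477 FPKM and GAPDH-DT 0.51 FPKM, a ratio of 0.000345 on 1, 9, 6 and 5 reads. ERRFI1-DT stood at 0.00159 of ERRFI1, a feedback inhibitor of EGFR, BTF3-DT at 0.00415 of BTF3, ADM-DT at 0.0081 of the adrenomedullin gene, NQO1-DT at 0.00856 of the quinone reductase gene NQO1, and TMED2-DT at 0.00867 of TMED2, a cargo receptor of the early secretory pathway. All 6 members lay between 0.51 and 0.75 FPKM. With members limited to 0.5 FPKM or more, the lowest ratios can come only with highly expressed partners.

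The comparison of KIF26B siRNA with control libraries was fitted with limma on log2(FPKM + 1) over all 17809 genes. Of the 197 members 18 were higher and 4 lower at an unadjusted P of 0.05, and 175 did not pass. The background over all genes was 6.88% higher and 7.58% lower, and the members' shares were 9.14% and 2.03%. The share higher was 5.96% for the 151 members whose exons share no base with the partner's exons (9 members), below the background, and 19.6% for the 46 with shared bases (9 members). At an adjusted P of 0.05 limma called 0 members and 0 genes in all (0.0%; smallest adjusted P = 0.283), and limma-voom on the recovered reads also called 0, with 15 members higher (7.61%, against 7.22% of all genes) and 2 lower (1.02%, against 9.02%) at an unadjusted P of 0.05. None of the single changes below therefore passed correction over all genes, and in bulk RNA fewer cells and less RNA per cell cannot be told apart.

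The number of calls rested on all 4 libraries. Without KIF26B siRNA replicate 1, 42 members were higher and 17 lower (21.3% and 8.63%), where all genes gave 19.3% and 19.2%. Without KIF26B siRNA replicate 2 the counts were 36 and 13 (18.3% and 6.60%), with 14.6% and 17.7% over all genes. Without control replicate 1 they were 1 and 2, with 1.88% and 1.83% over all genes, and without control replicate 2 they were 1 and 0, with 1.85% and 1.63%. The shares higher thus lay nearer to those of all genes than the shares lower when a KIF26B siRNA library was left out. A single KIF26B siRNA library is then assumed to vary like the controls, which lay close together: the median absolute log2 gap of the members was 0.182 between the controls and 0.269 between the KIF26B siRNA libraries. All 18 and all 4 kept their direction in each of these fits. Where both KIF26B siRNA libraries lie on one side of both controls, leaving out 1 library cannot change the direction.

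Both KIF26B siRNA libraries were above both controls for 55 members (27.9%, against 24.4% of all genes) and below both for 28 (14.2%, against 26.0%). The median log2 fold change of the members was 0.09, against -0.0037 for all genes, and 121 of 197 were above 0. It was 0.07 in KIF26B siRNA replicate 1 and 0.14 in replicate 2, each set against the mean of the controls. On a scale that compresses low values less, the median was 0.20 (pseudocount 0.1) and 0.20 (limma-voom on reads). The share of mitochondrial reads was also higher in both KIF26B siRNA libraries than in the controls, and its part in these values was not tested.

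Other noncoding genes had medians of a similar size. The 2332 other lncRNA genes at the same limit had a median log2 fold change of 0.10, with 8.79% higher and 3.34% lower at an unadjusted P of 0.05. For the 490 antisense-named genes the median was 0.12 (8.16% and 1.84%), and for 25 lncRNA genes with symbols ending in HG, hosts of small RNAs, 0.20. All 12110 protein-coding genes had a median of -0.03, with 5.90% higher and 8.60% lower, and 30.9% of them were below both controls in both KIF26B siRNA libraries. Set beside these, the 192 coding partners had -0.10, with 6 higher, 22 lower and 164 not past the threshold (3.12% and 11.5%), and 76 of them were below both controls in both KIF26B siRNA libraries (39.6%).

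**Figure D1:**
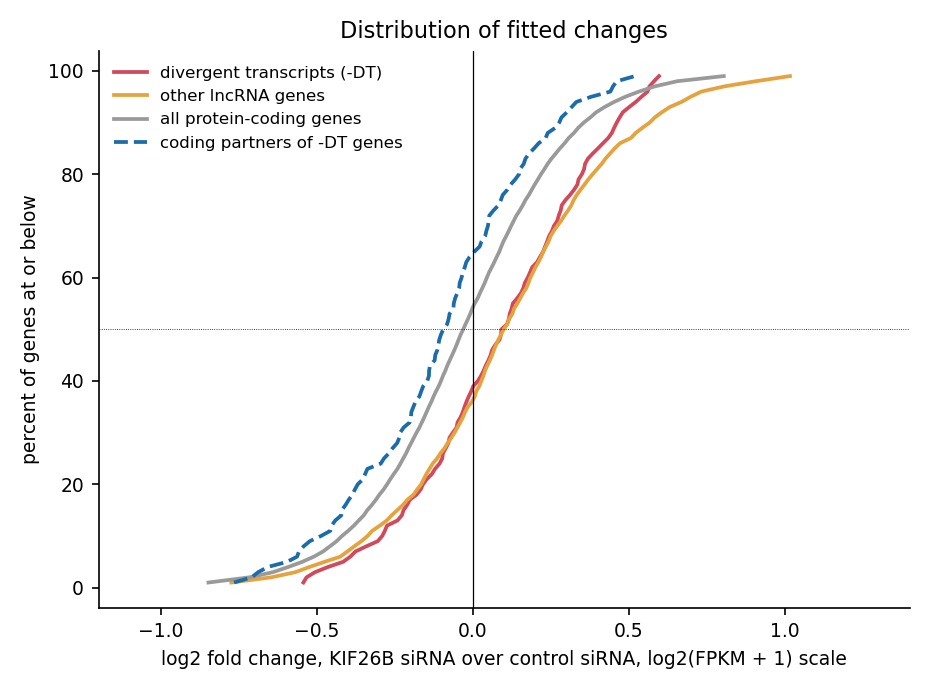
Percent of genes (vertical) at or below each fitted log2 fold change, KIF26B siRNA over control siRNA on the log2(FPKM + 1) scale (horizontal), drawn from the first to the ninety-ninth percentile. Divergent transcripts (median 0.09) run close to other lncRNA genes (0.10) in the middle of the range and fall short of them at its upper end (0.54 against 0.70 at percentile 95). They lie to the right of all protein-coding genes (-0.03) except from percentile 97 up (0.57 against 0.58 there), and the coding partners (-0.10) lie to the left of protein-coding genes except at percentiles 1 and 2.

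Among members with a mean of at least 1 FPKM, the largest upward change in the fit was that of MARCHF6-DT, at 1.92 and 2.02 FPKM in the controls and 3.43 and 4.24 FPKM under KIF26B siRNA (log2 fold change 0.70 ± 0.14 (SE), adjusted P = 0.287). The groups did not overlap, and the means were 1.97 ± 0.072 and 3.83 ± 0.572 FPKM (SD, n = 2 each), a ratio of 1.94. Its partner MARCHF6, an E3 ubiquitin ligase of the endoplasmic reticulum, stood at 17.6 and 17.9 FPKM in the controls and 19.2 and 20.4 FPKM under KIF26B siRNA, a much smaller difference (log2 fold change 0.15 ± 0.12 (SE), adjusted P = 0.599). Exons of the 2 genes share 25 bases.

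MRPL20-DT stood at 1.61 and 1.38 FPKM in the controls and 3.01 and 2.98 FPKM under KIF26B siRNA, on 48, 52, 98 and 82 reads (log2 fold change 0.68 ± 0.12 (SE), adjusted P = 0.283). Its partner, which encodes a protein of the large mitochondrial ribosomal subunit, went the other way, at 24.6 and 26.2 FPKM in the controls and 21.3 and 13.4 FPKM under KIF26B siRNA (log2 fold change -0.56 ± 0.25 (SE), adjusted P = 0.4). The groups were apart in both genes, in opposite directions, and the ratio of MRPL20-DT to MRPL20 was 0.0653, 0.0528, 0.141 and 0.222 in the 4 libraries.

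RNASEH1-DT, the tenth most abundant member and one of the best covered, stood at 3.1 and 3.29 FPKM in the controls and 5.42 and 4.95 FPKM under KIF26B siRNA, on 296, 396, 564 and 436 reads (log2 fold change 0.56 ± 0.12 (SE), adjusted P = 0.287). RNASEH1, whose enzyme degrades the RNA of RNA-DNA hybrids, stood at 12.98 and 12.6 FPKM in the controls and 13.3 and 11.9 FPKM under KIF26B siRNA (log2 fold change -0.02 ± 0.13 (SE), adjusted P = 0.953). The divergent transcript was thus higher in both KIF26B siRNA libraries while those of its partner lay on either side of the controls.

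ZFAND2A-DT, beside a gene of the stress-induced AN1 zinc finger family, stood at 3.26 and 2.83 FPKM in the controls and 5.07 and 4.84 FPKM under KIF26B siRNA (log2 fold change 0.56 ± 0.13 (SE), adjusted P = 0.287), with ZFAND2A at 4.44, 4.8, 4.51 and 4.9 FPKM. The exons of that pair share 209 bases. ZNF584-DT, which starts head to head with a zinc finger gene in RefSeq, stood at 2.85 and 3.49 FPKM in the controls and 5.18 and 5.12 FPKM under KIF26B siRNA (log2 fold change 0.57 ± 0.14 (SE), adjusted P = 0.292). It was close to ZNF584 itself in level (ratio 1.13).

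MAN1B1-DT, beside the gene of a mannosidase in glycoprotein quality control, stood at 0.517 and 0.693 FPKM in the controls and 1.38 and 1.42 FPKM under KIF26B siRNA, on 19, 32, 55 and 48 reads (log2 fold change 0.58 ± 0.13 (SE), adjusted P = 0.287). Its ratio between group means, 2.31, was above that of MARCHF6-DT although its fitted change was smaller, because adding 1 to low FPKM compresses them. EOLA2-DT stood at 0.862 and 0.814 FPKM in the controls and 1.37 and 2.13 FPKM under KIF26B siRNA (log2 fold change 0.57 ± 0.18 (SE), adjusted P = 0.323).

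ZMPSTE24-DT, NUDT19-DT and ATP6AP1-DT had groups that did not overlap but did not pass the threshold. ZMPSTE24-DT, beside the gene of the prelamin A protease, stood at 1.12 and 0.736 FPKM in the controls and 1.49 and 2.37 FPKM under KIF26B siRNA (log2 fold change 0.59 ± 0.22 (SE), adjusted P = 0.348), while ZMPSTE24 stood at 17.5, 17.8, 20.1 and 9.06 FPKM. NUDT19-DT (5, 17, 18 and 18 reads) and ATP6AP1-DT (6, 15, 17 and 19 reads) were thinly covered, and control replicate 1 was the lowest library in both.

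Further members past the threshold are outside the fixed naming rule and are named after their values were seen. GARS1-DT, with 297 to 645 reads per library, stood at 0.659 and 0.665 FPKM in the controls and 1.22 and 1.55 FPKM under KIF26B siRNA, MAP3K9-DT at 1.64, 1.7, 2.81 and 2.71 FPKM and MAP4K3-DT at 0.484, 0.517, 0.951 and 1.13 FPKM. In each the control libraries lay close together, and both KIF26B siRNA libraries were well above them. MCPH1-DT (1.63, 1.84, 2.66 and 2.85 FPKM), MVP-DT (1.54, 1.8, 2.68 and 2.6 FPKM) and TNFRSF10A-DT (3.38, 3.32, 4.42 and 4.71 FPKM, beside a TRAIL receptor gene) were likewise apart between groups. HEATR5A-DT, CBARP-DT, GPR155-DT and ADCY6-DT were also higher, each with under 20 reads in at least 1 library.

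MAP4K3-DT and MAP4K3 were the one pair in which both genes passed the threshold. MAP4K3, a kinase gene, stood at 6.21 and 6.54 FPKM in the controls and 4.64 and 5.04 FPKM under KIF26B siRNA (log2 fold change -0.34 ± 0.12 (SE), adjusted P = 0.343), below the controls, whereas MAP4K3-DT was above them (log2 fold change 0.44 ± 0.12 (SE), adjusted P = 0.305). The ratio of the 2 was 0.0778, 0.0791, 0.205 and 0.225 in the 4 libraries. Exons of the pair share 75 bases.

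**Figure D2:**
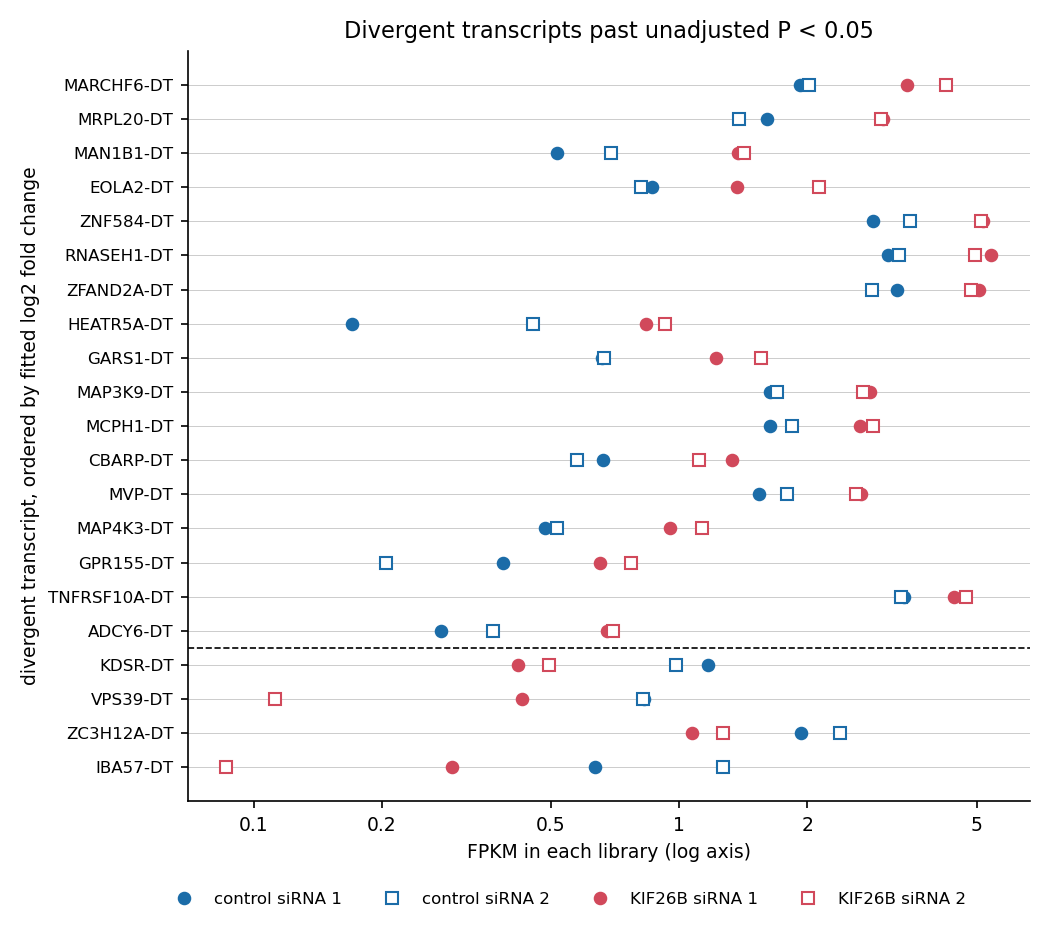
FPKM (horizontal, log axis) of 21 of the 22 divergent transcripts past an unadjusted limma P of 0.05, with 1 mark per library (blue control siRNA, red KIF26B siRNA, filled replicate 1, open replicate 2), ordered by fitted log2 fold change. The dashed line separates the 17 higher that are drawn from the 4 lower, and VPS39-DT and IBA57-DT reach their lowest values in KIF26B siRNA replicate 2.

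Fewer members were lower, and 3 of the 4 had under 20 reads in some library. Those 3, KDSR-DT, IBA57-DT and VPS39-DT, averaged below 0.5 FPKM under KIF26B siRNA and met the limit on the mean only through the controls. The same held in the other direction for 3 of the 18 higher, HEATR5A-DT, ADCY6-DT and GPR155-DT, whose control means were below it. Of the 4 past the threshold ZC3H12A-DT alone averaged at least 1 FPKM. It stood at 1.94 and 2.38 FPKM in the controls and 1.07 and 1.27 FPKM under KIF26B siRNA (log2 fold change -0.54 ± 0.14 (SE), adjusted P = 0.297), and ZC3H12A, which encodes the mRNA-degrading ribonuclease regnase-1, at 4.9 and 5.29 FPKM in the controls and 4.24 and 4.36 FPKM under KIF26B siRNA (log2 fold change -0.20 ± 0.12 (SE), adjusted P = 0.492). Both genes of that pair were below the controls, and the ratio between group means was 0.543 for the divergent transcript.

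KDSR-DT, beside a gene of sphingolipid synthesis, stood at 1.17 and 0.981 FPKM in the controls and 0.417 and 0.494 FPKM under KIF26B siRNA, on 18, 19, 7 and 7 reads, while KDSR stood at 6.73, 7.25, 6.59 and 6.65 FPKM. IBA57-DT, beside a gene of mitochondrial iron-sulfur protein assembly, had 8, 20, 4 and 1 reads (0.636, 1.26, 0.292 and 0.0863 FPKM), and VPS39-DT, beside a gene of the HOPS tethering complex, 16, 20, 9 and 2 reads (0.825, 0.82, 0.426 and 0.112 FPKM). With 1 and 2 reads in KIF26B siRNA replicate 2, no ratio between groups is given for IBA57-DT and VPS39-DT. Their partners stood at 1.86, 1.79, 1.86 and 1.87 FPKM (IBA57) and 7.35, 7.54, 7.4 and 7.98 FPKM (VPS39), so neither partner was below the controls in both KIF26B siRNA libraries.

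The other named members below both controls did not pass the threshold. DUSP5-DT stood at 2.27 and 2.32 FPKM in the controls and 2.16 and 0.705 FPKM under KIF26B siRNA and DUSP5, an ERK phosphatase gene, at 226 and 216 FPKM in the controls and 93.4 and 210.3 FPKM under KIF26B siRNA, so the low library was replicate 2 for the first and replicate 1 for the second. CRIM1-DT stood at 2.78 and 1.88 FPKM in the controls and 1.79 and 1.06 FPKM under KIF26B siRNA and CRIM1, a transmembrane BMP-binding protein gene, at 18.2 and 19.01 FPKM in the controls and 14.1 and 8.75 FPKM under KIF26B siRNA. There the 2 genes were lowest in the same library, and their ratio was 0.153, 0.099, 0.127 and 0.121.

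PRR15-DT and FAM111A-DT were below both controls beside partners that passed the threshold as lower. PRR15-DT stood at 1.45 and 1.29 FPKM in the controls and 0.975 and 1.08 FPKM under KIF26B siRNA and PRR15 at 4.34 and 4.66 FPKM in the controls and 1.58 and 1.73 FPKM under KIF26B siRNA (log2 fold change -1.05 ± 0.12 (SE), adjusted P = 0.283), the largest decrease among the 192 partners. FAM111A-DT stood at 1.25 and 1.15 FPKM in the controls and 1.04 and 0.732 FPKM under KIF26B siRNA and FAM111A, a gene of a replication-associated protease, at 7.61 and 8.01 FPKM in the controls and 4.23 and 5.95 FPKM under KIF26B siRNA (log2 fold change -0.55 ± 0.19 (SE), adjusted P = 0.332). UBL7-DT (2.29, 2.01, 1.94 and 1.94 FPKM) and SLC20A1-DT (1.49, 1.52, 1.44 and 1.37 FPKM) differed by little, and NECTIN1-DT (2.92, 2.25, 2.24 and 1.9 FPKM) and CD2BP2-DT (1.75, 1.31, 1.09 and 1.28 FPKM) lay just under the lower control in their nearest library.

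Changes of a divergent transcript and of its partner were weakly related. Over the 192 pairs with both genes tested, Pearson r was 0.17 and Spearman's rho 0.16 between the 2 log2 fold changes, a description across pairs that share their libraries. It was 0.10 in the 147 pairs whose exons share no base and 0.31 in the 45 whose exons do. With the KIF26B siRNA libraries taken singly, r was 0.24 for replicate 1 and 0.05 for replicate 2. The antisense-named pairs, whose names mark them as antisense to the gene, had 0.27 (n = 444).

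In 107 pairs (55.7%) both genes had the same sign. Both were up in 50 and both down in 57, the divergent transcript was up and its partner down in 67, and the reverse held in 18. The median difference, divergent transcript minus partner, was 0.17 on the log2(FPKM + 1) scale (quartiles -0.06 and 0.46), and it was above 0 in 133 pairs (69.3%). As groups, members had a median log2 fold change of 0.09 and partners -0.10. Other lncRNA genes had 0.10 and all protein-coding genes -0.03. A difference in this direction thus also lay between groups that are not paired. The ratio of the 2 genes was higher in both KIF26B siRNA libraries than in both controls in 66 pairs and lower in 18 (34.4% and 9.38%), against 132 and 48 of the 444 antisense-named pairs (29.7% and 10.8%), whose median difference was 0.10. With 2 libraries per group an exact permutation test of a single ratio cannot go below 0.333 (two-sided), so no pair is tested on its own.

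**Figure D3:**
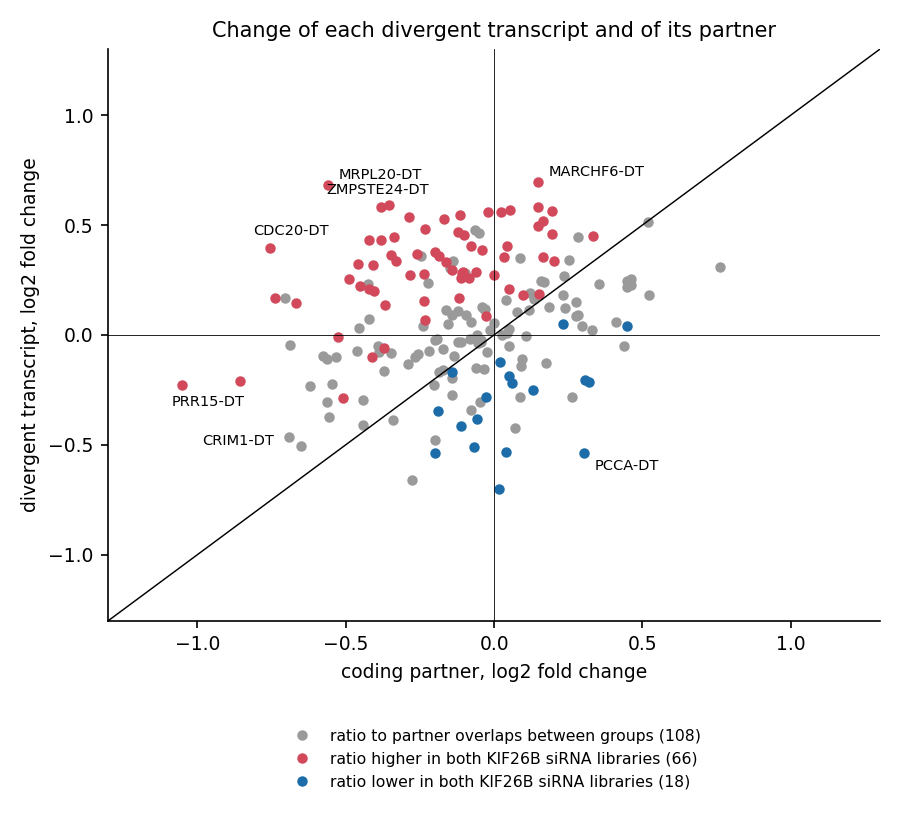
Fitted log2 fold change of each divergent transcript (vertical) against that of its coding partner (horizontal), KIF26B siRNA over control siRNA, for 192 pairs, with the line of equal change. Red points (66) had a higher ratio to the partner in both KIF26B siRNA libraries than in both controls, and blue points (18) a lower one.

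CDC20-DT and its partner differed most after MRPL20-DT among pairs whose ratios did not overlap between groups. CDC20, the activator of the anaphase-promoting complex, stood at 140.5 and 141 FPKM in the controls and 67.9 and 101 FPKM under KIF26B siRNA (log2 fold change -0.76 ± 0.23 (SE), adjusted P = 0.317), whereas CDC20-DT stood at 2.7 and 2.7 FPKM in the controls and 3.05 and 4.86 FPKM under KIF26B siRNA (log2 fold change 0.40 ± 0.22 (SE), adjusted P = 0.466). The ratio was 0.0192, 0.0191, 0.0449 and 0.0479 in the 4 libraries, higher in both KIF26B siRNA libraries, and the difference of the log2 fold changes was 1.15.

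SLC12A2-DT, among the best covered members with 1425, 1590, 1857 and 1302 reads, stood at 3.74 and 3.32 FPKM in the controls and 4.48 and 3.72 FPKM under KIF26B siRNA, and SLC12A2, the sodium, potassium and chloride cotransporter gene, at 16.3 and 16.1 FPKM in the controls and 14.1 and 6.05 FPKM under KIF26B siRNA. SLC12A2 was lowest in KIF26B siRNA replicate 2, where the ratio of the pair was highest (0.23, 0.206, 0.318 and 0.614). CAMTA1-DT (4, 1, 3 and 13 reads) and CSGALNACT2-DT (13, 8, 10 and 39 reads) rested on few reads, with replicate 2 of the KIF26B siRNA group far above the other libraries. PCCA-DT was the one of the 8 with a lower ratio, 3.15, 3.54, 2.67 and 0.903. PCCA was above both controls in both KIF26B siRNA libraries (2.25, 1.69, 2.36 and 2.95 FPKM). PCCA was highest in replicate 2, the library in which PCCA-DT was low.

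The 22 partners that were lower at an unadjusted P of 0.05 had divergent transcripts with a median log2 fold change of -0.05 (9 of 22 above 0, 1 of them past the threshold as higher, 0 as lower), and the 6 partners that were higher had divergent transcripts with a median of 0.24 (5 of 6 above 0, none past the threshold). ADM, for example, stood at 90.2 and 91.8 FPKM in the controls and 56.8 and 55.4 FPKM under KIF26B siRNA (log2 fold change -0.69 ± 0.12 (SE), adjusted P = 0.283), and ADM-DT at 0.254, 1.01, 0.291 and 0.827 FPKM on 4, 20, 5 and 12 reads. NQO1 stood at 61.4 and 60.7 FPKM in the controls and 76.4 and 101 FPKM under KIF26B siRNA (log2 fold change 0.52 ± 0.18 (SE), adjusted P = 0.339), and NQO1-DT at 0.0861, 0.616, 0.553 and 1.31 FPKM on 1, 9, 7 and 14 reads, with controls far apart.

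The position beside the partner was set against the changes as a description, with no test between the classes. Overlap of starts depends on the use of the outermost annotated start of each gene, and no split by other starts was made. Of the 53 whose starts overlapped the partner, 11 were higher and 0 lower at an unadjusted P of 0.05 (20.8% higher), with a median log2 fold change of 0.18, and of the 144 without overlap 7 were higher and 4 lower (4.86% and 2.78%), with a median of 0.06. The split by exons was alike: 9 of 46 members with shared exon bases were higher and 0 lower, and 9 of 151 without shared bases were higher and 4 lower (5.96% and 2.65%, against 6.88% and 7.58% of all genes). The median reads per library were 88.2 for members with overlapping starts and 36.1 for the others, so coverage differed too, and its part was not tested. The reads of the partner cannot be told apart from those of the member in the shared bases.

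**Figure D4:**
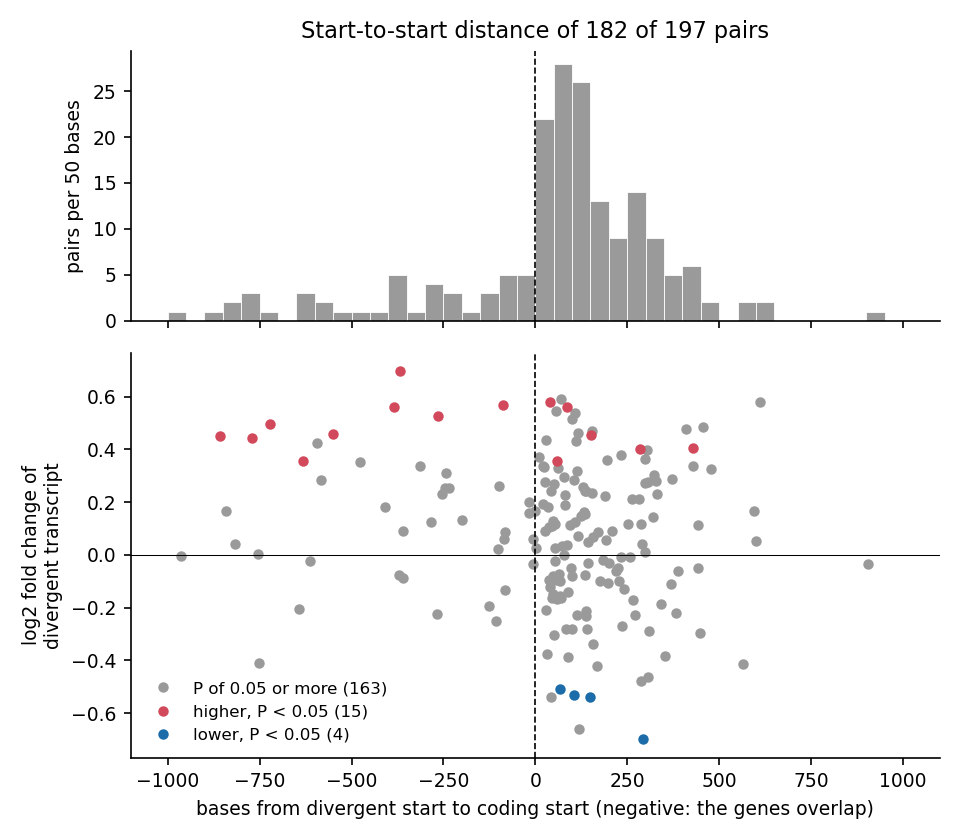
Upper panel, number of pairs per 50 bases of distance from the divergent start to the coding start for the 182 pairs within 1000 bases, a negative distance meaning overlap. Lower panel, log2 fold change of the divergent transcript at each distance, with the 15 higher (red) and 4 lower (blue) at an unadjusted P of 0.05, and all 4 lower members to the right of 0.

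Classes by coverage and by number of exon blocks were described in the same way, beside 6.88% higher and 7.58% lower over all genes. Among the 114 members with at least 20 reads in every library 13 were higher and 1 lower (11.4% and 0.877%), with a median log2 fold change of 0.12, and among the other 83 the numbers were 5 and 3 (6.02% and 3.61%), with a median of 0.07. Exon blocks merge the exons of all transcripts of a gene, so their number does not measure splicing. Members with 2 or more blocks had a median of 0.11, with 15 of 152 higher and 4 lower (9.87% and 2.63%). Members with 1 block had a median of 0.03, with 3 of 45 higher and 0 lower (6.67% higher, near the share of all genes). By limma-voom the medians were 0.23 and -0.04.

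The 5 lists of genes that act on RNA of this class were examined in the same fit, in which 6.88% of all genes were higher and 7.58% lower. Of 27 tested genes of the nuclear exosome and its cofactors, which degrade such RNAs, 1 was higher, 1 lower and 25 did not pass (median log2 fold change -0.17). RBM7, the RNA-binding subunit of the NEXT complex, stood at 1.89 and 1.77 FPKM in the controls and 2.86 and 2.72 FPKM under KIF26B siRNA (log2 fold change 0.42 ± 0.12 (SE), adjusted P = 0.305). SRRT, also called ARS2, which links the cap-binding complex to NEXT, stood at 43.2 and 44.8 FPKM in the controls and 34.7 and 34.7 FPKM under KIF26B siRNA (log2 fold change -0.33 ± 0.12 (SE), adjusted P = 0.336). The groups were apart in both genes, in opposite directions. C1D (log2 fold change -0.38 ± 0.16 (SE), adjusted P = 0.385), an exosome cofactor, and ZCCHC7 (log2 fold change 0.30 ± 0.13 (SE), adjusted P = 0.396), of the TRAMP complex, did not pass.

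None of 15 Integrator genes (median log2 fold change -0.05) passed at an unadjusted P of 0.05 with limma, the smallest P values belonging to INTS3 (log2 fold change 0.50 ± 0.19 (SE), adjusted P = 0.352), INTS10 (log2 fold change 0.37 ± 0.15 (SE), adjusted P = 0.366), INTS7 and INTS1. Of 21 cleavage and polyadenylation genes (median 0.04) 1 was lower, PPP1CA, a protein phosphatase catalytic subunit, at 84.2 and 86.6 FPKM in the controls and 66.3 and 59.1 FPKM under KIF26B siRNA (log2 fold change -0.44 ± 0.13 (SE), adjusted P = 0.31), and 20 did not pass, among them the poly(A) polymerase gene PAPOLA (log2 fold change -0.58 ± 0.23 (SE), adjusted P = 0.361), CSTF2 (log2 fold change -0.59 ± 0.24 (SE), adjusted P = 0.372) and RBBP6. Of 13 genes of the U1 snRNP list (median 0.06), 1 was lower, SNRPG, a core protein common to spliceosomal snRNPs, at 47.7 and 53.5 FPKM in the controls and 35.4 and 37.9 FPKM under KIF26B siRNA (log2 fold change -0.45 ± 0.13 (SE), adjusted P = 0.31), and LUC7L2, SNRPD1 and LUC7L did not pass. None of 20 genes of transcription start and pausing (median -0.04) passed, GTF2B (log2 fold change -0.35 ± 0.14 (SE), adjusted P = 0.358) having the smallest P and CDK9, SUPT5H and HEXIM1 following. Over all 5 lists limma called 0 genes at an adjusted P of 0.05.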

How the data were processed

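The measurements are 4 RNA-seq libraries of HCT116, 2 per group, grouped by their sample labels. According to the methods, poly(A) RNA was purified with poly-T beads and sequenced as paired-end libraries. The submitters' processing notes name HISAT2 2.0.5, featureCounts 1.5.0-p3 and hg38, whereas the methods name hg19. Strand use in counting is not stated. The values the authors deposited are FPKM, 1 per gene and library, with Ensembl identifiers. Symbols, strands and start distances came from GENCODE 44 mapped to GRCh37 (56513 of 58735 identifiers matched), and no GRCh37 coordinates are given. Whole reads were recovered for 34637 of 34638 genes above 0 by finding the gene length that makes all 4 libraries whole (tolerance 0.001 reads, widened slightly for large counts), and they summed to 20416515, 25832199, 22403291 and 19938154. The depths estimated from genes with 1 exon were lower, at 19629581, 24673739, 21363618 and 18068934. At those depths 90.9% to 91.3% of the genes with 1 exon gave whole reads. The cause of the excess was not tested, and some recovered read counts may be too high.

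The fit was limma 3.58.1 (R 4.3.3), lmFit and eBayes on log2(FPKM + 1), run on the 17809 genes averaging 0.5 FPKM or more, with no covariate and Benjamini-Hochberg adjustment over all of them. Fold changes on this scale understate those of low genes. The script was tested on simulated data. Members were chosen as symbols ending in -DT at that mean, and the members and lists were chosen with earlier results of these data known. Named genes were KIF26B, the 10 highest members, the 10 largest rises and falls with P under 0.05 or non-overlapping groups and a mean of at least 1 FPKM, 3 members on either side of the limit, the 6 highest and 6 lowest ratios to a partner of at least 0.5 FPKM, the 8 largest differences from the partner with non-overlapping ratios, their partners, and up to 4 genes with the smallest P of each list. Alternatives were the replicate block, a pseudocount of 0.1, a mean of at least 1 FPKM, no filter, median-of-ratios scaling, a variance trend, limma-voom on the recovered reads and leaving out each library. Restricting members to those without shared exon bases, and every alternative for the correlation, were added after the data were seen. Tables were made in Python 3.11.15 (pandas 2.3.3, numpy 2.4.6) and figures with matplotlib 3.10.9. Promoter sequences are from RefSeq (GRCh38.p14), and none on chromosome 8 are shown. One member is counted but not reported here by name.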

Additional observations from a re-analysis of the deposited data

How the results depend on the processing

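No member passed an adjusted P of 0.05 under any alternative. The same-numbered libraries of the 2 groups did not deviate together (correlation 0.002), so the numbers are not taken to pair the samples. With the replicate block 12 members were higher and 5 lower (6.09% and 2.54%), where all genes gave 5.59% and 5.34%, so the share higher was near that of all genes. It was 7.11% with the variance trend, against 7.39% of all genes. Members higher numbered 18 and ranged from 12 to 24 under the other fits with all libraries, and 9 of 151 (5.96%, against 6.88% of all genes) were higher among members without shared exon bases. Members lower numbered 4, but 1 with a mean of at least 1 FPKM and 2 with limma-voom. Leaving out 1 library gave 1 to 42 higher and 0 to 17 lower. The median log2 fold change of 0.09 became 0.20 with a pseudocount of 0.1, 0.13 with a mean of at least 1 FPKM and 0.20 with limma-voom, and ranged from 0.065 to 0.135 when 1 library was left out. The median difference between divergent transcript and partner, 0.17, became 0.24 with a pseudocount of 0.1, 0.23 with a mean of at least 1 FPKM and 0.24 with limma-voom, and ranged from 0.17 to 0.23 when 1 library was left out. Over those leave-outs the correlation across pairs ranged from 0.05 to 0.24, and the pairs with the divergent transcript above its partner from 15 to 16, against 17. For fewer genes tested or fewer libraries the alternative's construction accounts for part of the change, and otherwise the cause was not tested. Over all genes, 2576 of 17809 passed an unadjusted P of 0.05, 4378 of 34638 with no filter, and 621 to 6848 when 1 library was left out. For the 84 named members and partners in the fit, 912 alternative values were computed: 41 fell back over the unadjusted threshold, 70 passed it anew, 29 uncalled values changed sign (2 of them among the 70), and no called value changed sign. Leaving out 1 library cannot change the sign where the groups do not overlap. The median member had 39 to 46 reads per library, which limits the precision of its values.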
